A study of Mus musculus with 8 samples.

Results

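Inner and outer hair cells of the cochlea convert sound into electrical signals, and 6 genes for what these cells do after transduction were followed in cells sorted from the cochleas of *Lfng-GFP* mice. The genes were *Otof*, *Slc17a8*, *Cacna1d*, *Cabp2*, *Slc26a5* and *Ocm*. They were chosen by symbol, as the genes with one of these names in the NCBIM37 mouse annotation, and each name gave 1 gene, so that 6 of the 36536 genes in the count files are described. Cochleas of P1 and P6 mice, 1 and 6 days after birth, were dissected, dissociated and sorted without culture or treatment. The dissection differed with age: at P1 the stria vascularis, lateral wall and Reissner's membrane were separated off, and at P6 they were removed only in part. Age and dissection therefore cannot be told apart where P6 is compared with P1. All groups came from mice of the BAC transgenic strain B6;FVB-Tg(Lfng-EGFP)HM340Gsat/Mmucd, in which GFP is driven by *Lfng* regulatory sequence, so that the GFP- cells carry the transgene too. The 4 groups were P1 GFP+, P1 GFP-, P6 GFP+ and P6 GFP- cells, with 2 replicate libraries in each. The GFP+ cells were the brightest cells of the sort, a fraction collected as supporting cells (border, inner phalangeal, outer pillar and Deiters' cells). Weakly fluorescent cells, thought to include inner pillar cells and inner hair cells, were not collected. The GFP- fraction holds the cochlear cells of all types without the label.

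Sound reaches the auditory nerve through the ribbon synapse of the inner hair cell, where a voltage-gated calcium channel opens beside glutamate-filled vesicles. *Cacna1d* encodes the pore-forming subunit of that channel, *Cabp2* a calcium-binding protein that keeps the channel from inactivating, *Otof* the calcium sensor otoferlin that vesicle fusion requires, and *Slc17a8* the transporter that loads the vesicles with glutamate. The outer hair cell instead amplifies vibration by changing its length: *Slc26a5* encodes prestin, the membrane motor protein that does so, and *Ocm* encodes oncomodulin, a calcium buffer of the parvalbumin family that is abundant in outer hair cells.

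Each count was divided by the library's total on genes and given per 1000000 gene counts (CPM). For comparisons between genes they were also divided by the kilobases of annotated exon (RPKM). The libraries held from 17769024 gene counts in P6 GFP+ replicate 1 to 67695039 in P6 GFP- replicate 2, and 3 counts correspond to between 0.0443 and 0.169 CPM. Nothing in the labels or the methods says whether the replicates came from separate litters or sorts, so the p-values measure the spread between these libraries, which may be technical. The quasi-likelihood test of edgeR was run over all genes, and a gene past the criteria had p and adjusted p below 0.01 with a fold change above 4. Fold changes are on the log2 scale ± SE.

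The labels of the fractions were checked against marker genes. Of 10 supporting cell markers, 8 passed the criteria with the higher level in GFP+ cells at P1, and 9 did so at P6. None was lower past the criteria, but *Slc1a3* had 157.3 and 156.6 CPM in P1 GFP+ against 378.5 and 312.2 CPM in P1 GFP- cells. *Lfng* itself was higher by 6.83 ± 0.36 and 6.36 ± 0.47. Because the sort used GFP driven by *Lfng* regulatory sequence, *Lfng* is no independent check of the labels. Of 13 hair cell markers, 8 also passed the criteria with the higher level in GFP+ cells at each age, and none was lower past them. At an unadjusted p below 0.05 in edgeR, 12 were higher and 1 lower at P1, and 11 higher and 0 lower at P6. *Calb2* was at 21.7 and 26.8 CPM in P1 GFP+ cells against 32.4 and 88.8 CPM in P1 GFP- cells. *Atoh1*, the transcription factor that starts hair cell differentiation, was higher by 4.61 ± 0.26 at P1. At P6 it had 0.844 and 1.04 CPM in GFP+ cells and 0.0162 and 0 CPM in GFP- cells, a level under that of 3 counts, so that its P6 fold change is not a precise value. *Pou4f3*, a transcription factor needed for hair cell survival, was higher by 3.61 ± 0.27 and 4.36 ± 0.34. *Myo6*, an unconventional myosin of hair cells, differed by 0.39 ± 0.11 and -0.19 ± 0.20, neither past the criteria. The GFP+ libraries thus held more transcript of most hair cell markers than the GFP- libraries. The summed level of the 13 markers was 764 and 860 CPM in P1 GFP+ cells against 516 and 523 CPM in P1 GFP- cells, and 432 and 530 CPM against 364 and 391 CPM at P6. Much of the sum came from *Myo6* and *Calb2*, and without them it was 300.2 and 358 CPM against 77.6 and 86.0 CPM at P1, and 153 and 176 CPM against 25.6 and 30.8 CPM at P6. Of the other cell types, 7 of 8 spiral ganglion neuron markers, 6 of 8 connective tissue markers, 4 of 4 melanocyte markers, 2 of 5 glia markers, 1 of 4 endothelial markers and 4 of 4 macrophage markers were lower past the criteria in the P1 GFP+ libraries. The medians were -3.72, -4.90, -8.03, -1.94, -1.74 and -4.07 in this order. At an unadjusted p below 0.05 in edgeR, 8, 8, 4, 4, 4 and 4 were lower at P1 and 0 higher. In the P6 GFP+ libraries, those lower past the criteria were 0 of 8, 2 of 8, 2 of 4, 0 of 5, 0 of 4 and 4 of 4 in the same order, with medians of -1.05, -3.12, -3.17, -0.32, -0.018 and -3.11. At P6, GFP+ replicate 2 stood apart from replicate 1 in the genes of the unlabelled cells: 751 genes with a level in P1 GFP- cells at least 16-fold that in P1 GFP+ cells had a median log2 difference of 1.04 between these replicates, against -0.00061 between the P1 GFP+ replicates. P1 GFP- replicate 2 had 709 CPM of spiral ganglion neuron markers against 261 CPM in replicate 1. The part of other cell types and of the number of hair cells in the values that follow was not tested.

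In the NCBIM37 annotation, *Otof* lies on chromosome 5 at 30669351 to 30764305 on the minus strand, with up to 47 exons in a transcript, and *Slc26a5* and *Ocm* lie on the same strand of the same chromosome at 21316473 to 21371422 (up to 20 exons) and 144780673 to 144787539 (up to 5 exons). *Cabp2* is a short gene on the plus strand of chromosome 19 at 4081578 to 4087340, with up to 7 exons, *Slc17a8* lies on the minus strand of chromosome 10 at 89036765 to 89083998, with up to 13 exons, and *Cacna1d* on the minus strand of chromosome 14 at 30853135 to 31304342, with up to 49 exons. Exons of *Cacna1d* overlap exons of *Chdh* on the opposite strand, and the library kit keeps no strand, so that reads from the shared stretch cannot be told apart. *Chdh* had at most 1067 counts in a library.

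The genes past the criteria in the P6 fractions are shown with the 250 bases before their annotated 5′ ends, read from the NCBIM37 genome and written 5′ to 3′ in the direction of the gene, because these genes shared a higher level in GFP+ cells and differed in their change with age. Capitals mark matches, on either strand, to 4 motifs: the TATA box (TATAAA), the CCAAT box (CCAAT), the E-box (CANNTG, the site of basic helix-loop-helix factors such as *Atoh1*) and the nuclear receptor half-site (AGGTCA).
The window of *Otof* is chr5:30764306-30764555, minus strand.
Otof: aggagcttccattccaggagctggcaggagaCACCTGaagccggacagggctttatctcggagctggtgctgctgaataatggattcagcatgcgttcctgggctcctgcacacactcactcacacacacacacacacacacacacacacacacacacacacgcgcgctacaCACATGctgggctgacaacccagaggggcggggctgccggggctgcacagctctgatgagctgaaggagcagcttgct
The window of *Cabp2* is chr19:4081328-4081577, plus strand.
Cabp2: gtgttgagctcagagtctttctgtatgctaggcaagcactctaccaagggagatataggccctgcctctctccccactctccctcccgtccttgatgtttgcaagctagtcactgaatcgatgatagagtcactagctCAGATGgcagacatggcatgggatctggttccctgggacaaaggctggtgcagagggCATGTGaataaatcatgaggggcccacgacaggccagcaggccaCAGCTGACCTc
The window of *Slc26a5* is chr5:21371423-21371672, minus strand.
Slc26a5: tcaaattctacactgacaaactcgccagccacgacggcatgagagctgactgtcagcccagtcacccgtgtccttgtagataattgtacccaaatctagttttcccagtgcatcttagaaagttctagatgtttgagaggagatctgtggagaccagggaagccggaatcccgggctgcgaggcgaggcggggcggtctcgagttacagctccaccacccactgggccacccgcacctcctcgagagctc
The window of *Ocm* is chr5:144787540-144787789, minus strand.
Ocm: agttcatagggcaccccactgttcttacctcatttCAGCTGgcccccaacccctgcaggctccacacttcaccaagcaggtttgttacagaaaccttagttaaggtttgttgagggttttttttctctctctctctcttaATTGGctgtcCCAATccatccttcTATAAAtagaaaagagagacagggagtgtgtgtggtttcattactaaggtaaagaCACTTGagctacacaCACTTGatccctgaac
Counted as the distance of a match's first base before the gene's 5′ end, *Ocm* held a TATA box at 86, CCAAT boxes at 110 and 100, and E-boxes at 215, 31 and 16. *Otof* held E-boxes at 219 and 78. *Cabp2* held E-boxes at 112, 55 and 11, the last of which overlaps a half-site at 7, and *Slc26a5* held no match to the 4 motifs. Among the windows of 22375 genes, 12.3% held the TATA box, 35.0% the CCAAT box, 63.5% the E-box and 12.6% the half-site, so that an E-box is common in any window of this length. Of the remaining genes, the window of *Slc17a8* held E-boxes at 153 and 104 and that of *Cacna1d* a CCAAT box at 92 and TATA boxes at 207, 205 and 150.

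At P1, the synaptic genes *Otof* and *Cabp2* were far higher in GFP+ than in GFP- cells, *Ocm* was higher at a very low level, and *Cacna1d* and *Slc17a8* had overlapping levels in both fractions. Of the 6 genes, 3 were past the criteria and higher in GFP+ cells and none was lower, where 6.46% of all 18682 genes tested were past the criteria and higher and 11.4% lower. The median log2 fold change was 2.34 over the 6 genes and 0.0075 over all genes tested. In bulk samples, fewer cells of a type and less RNA per cell cannot be told apart.
*Otof* stood at 150.7 and 191 CPM in P1 GFP+ cells and at 18.2 and 16.6 CPM in P1 GFP- cells. The fractions did not overlap, and the log2 fold change was 3.39 ± 0.13 (edgeR adjusted p = 1.89e-05), a 10.5-fold difference. *Cabp2* stood at 4.80 and 5.50 CPM in GFP+ cells, from 220 and 137 counts, and at 0.158 CPM in each GFP- library, from 6 and 10 counts. It had the largest fold change of the 6 genes at P1, 5.10 ± 0.31 (edgeR adjusted p = 6.65e-05).
*Cacna1d* was measured at 72.1 and 92.1 CPM in GFP+ cells and 83.2 and 85.3 CPM in GFP- cells, and the GFP- values lay between the GFP+ values. Its log2 fold change was 0.06 ± 0.12 (edgeR adjusted p = 0.685). *Slc17a8* was measured at 4.43 and 4.58 CPM in GFP+ cells and 4.51 and 5.28 CPM in GFP- cells, which overlapped, with a log2 fold change of -0.02 ± 0.20 (edgeR adjusted p = 0.949).
The outer hair cell genes were scarce at P1 in all libraries. *Slc26a5* had 0.698 and 1.21 CPM in GFP+ cells and 0.317 and 0.143 CPM in GFP- cells. The fractions did not overlap, yet the log2 fold change of 2.18 ± 0.54 missed the criteria (edgeR adjusted p = 0.0167). *Ocm* had 26 and 9 counts in the GFP+ libraries (0.567 and 0.362 CPM) and 3 and 6 counts in the GFP- libraries (0.0792 and 0.0951 CPM). Its log2 fold change was 2.51 ± 0.53 (edgeR adjusted p = 0.00946), and the ratio of the summed counts per gene count was 5.55, with an exact 95% interval of 2.62 to 13.1 that covers counting error only. This *Ocm* call rested on few counts: it was lost under 7 of 10 alternatives, with an adjusted p of 0.152 without P1 GFP+ replicate 1, 0.0408 without P1 GFP+ replicate 2 and 0.0103 without P1 GFP- replicate 2. *Slc26a5* passed the criteria without P1 GFP- replicate 1 (edgeR adjusted p = 0.000312).

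**Figure D1:**
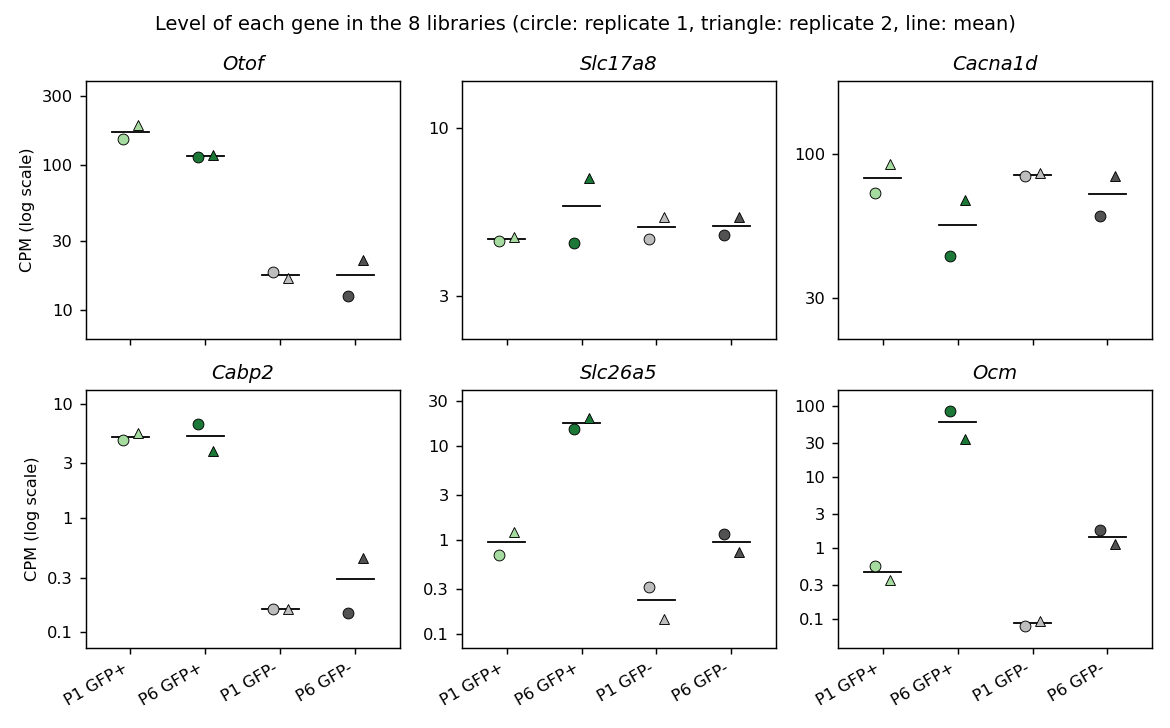
Level of each of the 6 genes in every library, in CPM on a log axis, with circles for replicate 1, triangles for replicate 2 and a line at the mean of the group. *Otof* and *Cabp2* were separated by fraction at both ages, *Slc26a5* and *Ocm* were highest in the P6 GFP+ libraries (15.1 and 19.8 CPM, and 86.2 and 34.4 CPM), and *Slc17a8* stayed between 4.39 and 7.00 CPM in all 8 libraries.

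At P6, *Otof*, *Cabp2* and *Ocm* were again higher in GFP+ cells and *Slc26a5* passed the criteria too, so that 4 of the 6 genes were past the criteria and higher in GFP+ cells, where 4.88% of all 18294 genes tested were and 3.1% were lower. The median log2 fold change was 3.43 over the 6 genes and -0.017 over all genes tested.
*Ocm* stood at 86.2 and 34.4 CPM in P6 GFP+ cells against 1.78 and 1.14 CPM in P6 GFP- cells. Of the 6 genes, *Ocm* had the widest gap between the P6 GFP+ replicates, but both lay far above the GFP- libraries, with a log2 fold change of 5.36 ± 0.56 (edgeR adjusted p = 0.00271). *Slc26a5* was measured at 15.1 and 19.8 CPM in GFP+ cells and 1.15 and 0.739 CPM in GFP- cells, again without overlap, with a log2 fold change of 4.20 ± 0.34 (edgeR adjusted p = 0.00139).
*Otof* was measured at 113.6 and 117.7 CPM in GFP+ cells and 12.5 and 22.0 CPM in GFP- cells, and the log2 fold change was 2.74 ± 0.29 (edgeR adjusted p = 0.00274). *Cabp2*, at 6.64 and 3.85 CPM in GFP+ cells, had only 0.146 and 0.443 CPM in GFP- cells, from 9 and 30 counts, and a log2 fold change of 4.12 ± 0.61 (edgeR adjusted p = 0.00688). Both fractions were thus still separated for these synaptic genes.
*Cacna1d* was measured at 42.5 and 68.0 CPM in GFP+ cells and 59.5 and 83.3 CPM in GFP- cells, and *Slc17a8* at 4.39 and 7.00 CPM and at 4.64 and 5.29 CPM. The fractions overlapped for both genes, with log2 fold changes of -0.38 ± 0.27 (edgeR adjusted p = 0.331) and 0.20 ± 0.31 (edgeR adjusted p = 0.663).
The P6 calls depended on P6 GFP- replicate 2. Without it, the 4 log2 fold changes were 3.19, 5.11, 3.89 and 5.06 for *Otof*, *Cabp2*, *Slc26a5* and *Ocm*, but the adjusted p-values were 0.0127, 0.0272, 0.0185 and 0.0225, and 0 of all genes were past the criteria and higher in GFP+ cells in edgeR, although 2327 had an unadjusted p below 0.05. Without P6 GFP- replicate 1, *Cabp2* alone of the 4 genes lost its call (edgeR adjusted p = 0.0276), at 3.61. The *Ocm* difference was 4.58 without P6 GFP+ replicate 1 and 5.91 without P6 GFP+ replicate 2, past the criteria in both.

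**Figure D2:**
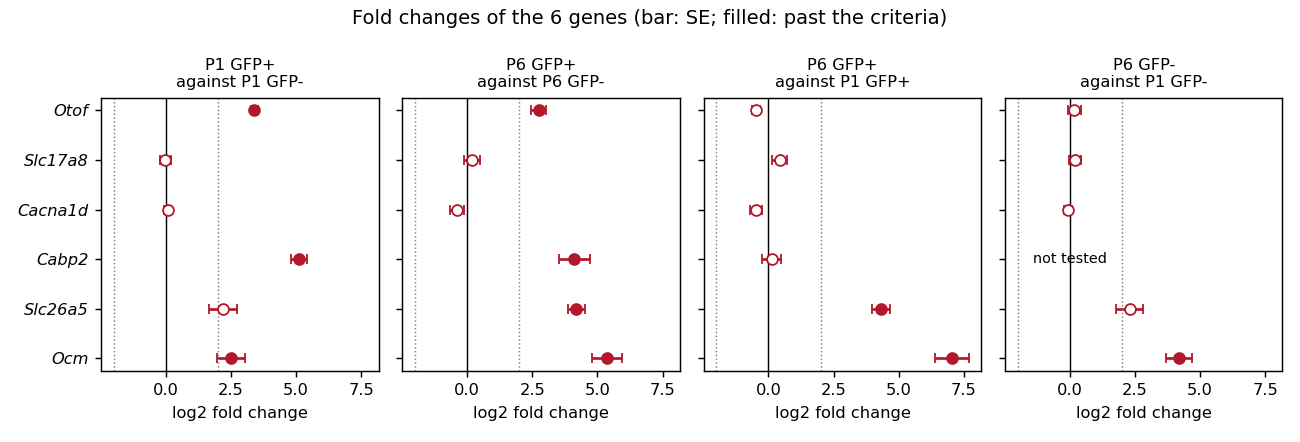
Log2 fold changes of the 6 genes in the 4 comparisons, with bars for the SE, filled points for genes past the criteria and dotted lines at the 4-fold criterion. *Otof*, *Cabp2* and *Ocm* were past the criteria between the fractions at both ages and *Slc26a5* at P6, *Slc26a5* and *Ocm* between the ages in GFP+ cells, *Ocm* between the ages in GFP- cells, and *Cacna1d* and *Slc17a8* in none of the comparisons.

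Between P1 and P6, the genes of outer hair cell function rose in GFP+ cells while none of the 4 synaptic genes changed past the criteria. *Ocm* and *Slc26a5* were past the criteria and higher at P6, 2 of the 6 genes, where 1.63% of all 17213 genes tested were and 0.93% were lower. The median log2 fold change was 0.27 over the 6 genes and -0.0024 over all genes tested. By their medians, the marker lists of other cell types were also at higher levels in P6 GFP+ cells. The medians were 2.40 for connective tissue (2 of 8 past the criteria and higher at P6), 0.90 for spiral ganglion neurons (1 of 8), 5.0 for melanocytes (3 of 4 tested), 2.40 for endothelium, 2.29 for macrophages and 1.5 for glia. The last 4 lists had 0 past the criteria in edgeR but 3, 4, 4 and 4 genes higher at an unadjusted p below 0.05. Past the criteria in the DESeq2 test, 2, 4, 2 and 2 genes of these 4 lists were higher. The summed levels of the 6 lists in the P1 and P6 GFP+ libraries ran from 5645 to 6965 and from 6416 to 11361 CPM for connective tissue, 51.3 to 52.1 and 70.0 to 105.6 CPM for neurons, 4.73 to 6.99 and 40.1 to 97.5 CPM for melanocytes, 20.0 to 22.7 and 40.2 to 168.5 CPM for endothelium, 5.10 to 6.70 and 19.5 to 49.0 CPM for macrophages and 174 to 306 and 753 to 1794 CPM for glia. Each sum was higher in P6 GFP+ replicate 2 than in replicate 1, where *Ocm* was higher in replicate 1. A melanocyte marker was at 0 in each P1 GFP+ library. Of the 8 neuron markers, 4 were higher and 0 lower at an unadjusted p below 0.05 in edgeR, but they did not all move alike. *Tubb3* went from 5.48 and 4.38 to 35.2 and 28.2 CPM, above its 18.2 and 12.6 CPM in P6 GFP- cells. *Nefm* went from 22.1 and 23.9 to 9.85 and 17.2 CPM, and *Elavl4* from 5.13 and 4.54 to 1.29 and 3.58 CPM. The part of these cell types in the changes of the 6 genes was not tested.
*Ocm* went from 0.567 and 0.362 CPM at P1 to 86.2 and 34.4 CPM at P6, a log2 fold change of 7.04 ± 0.64 (edgeR adjusted p = 0.00428), or 131-fold. *Slc26a5* went from 0.698 and 1.21 CPM to 15.1 and 19.8 CPM, a log2 fold change of 4.32 ± 0.34 (edgeR adjusted p = 0.00332), or 20.0-fold. Both calls held under each of the 10 alternatives run. The *Ocm* value was 6.17 without P6 GFP+ replicate 1, and the number of all genes past the criteria and higher at P6, 281, was 80 without P1 GFP+ replicate 2, 1306 without P6 GFP+ replicate 1 and 633 without P6 GFP+ replicate 2.
*Otof* was lower at P6 in both replicates, without overlap, by a log2 fold change of -0.47 ± 0.15 (edgeR adjusted p = 0.0787), and *Cacna1d* likewise by -0.48 ± 0.24 (edgeR adjusted p = 0.203). Neither difference was past the criteria, which ask for a fold change above 4. Under the 10 alternatives both genes stayed lower at P6, with log2 fold changes of -0.60 to -0.32 for *Otof* and -0.82 to -0.20 for *Cacna1d*. *Cabp2* differed by 0.12 ± 0.35 (edgeR adjusted p = 0.829) and *Slc17a8* by 0.43 ± 0.30 (edgeR adjusted p = 0.331), with overlapping ages.

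In GFP- cells, *Ocm* alone of the 6 genes was past the criteria between the ages, where 1.43% of all 18920 genes tested were past the criteria and higher at P6 and 0.418% lower. It went from 3 and 6 counts at P1 to 110 and 77 counts at P6, or from 0.0792 and 0.0951 CPM to 1.78 and 1.14 CPM. The log2 fold change was 4.20 ± 0.50 (edgeR adjusted p = 0.00247), and the ratio of the summed counts per gene count was 16.2, with an exact 95% interval of 8.36 to 36.0. Without P6 GFP- replicate 1 or 2 the adjusted p was 0.0244 or 0.0101, and the number of all genes past the criteria and higher at P6, 271, fell to 123 or 162.
*Slc26a5* was 0.317 and 0.143 CPM at P1 and 1.15 and 0.739 CPM at P6 in GFP- cells. Its log2 fold change of 2.30 ± 0.53 missed the criteria (edgeR adjusted p = 0.0277), but passed them without P1 GFP- replicate 1 (edgeR adjusted p = 0.00259). *Cabp2* had too few counts for the filter in this comparison and was not tested. The other genes differed by 0.17 ± 0.25 (*Otof*), 0.21 ± 0.22 (*Slc17a8*) and -0.05 ± 0.15 (*Cacna1d*), with overlapping ages.
The comparison of ages in GFP+ cells and that in GFP- cells use different libraries, and an interaction term for age and fraction tested whether the ratio of the fractions differed between the ages. None of the 6 genes was past p and adjusted p below 0.01 in edgeR, where 0.946% of 19233 genes were with a higher ratio at P6 and 0.988% with a lower one. The interaction was 2.84 ± 1.16 for *Ocm* (edgeR adjusted p = 0.208, unadjusted p = 0.0404) and 1.99 ± 0.65 for *Slc26a5* (edgeR adjusted p = 0.119, unadjusted p = 0.0149). Of the 6 genes, these 2 were at an unadjusted p below 0.05. The DESeq2 test called 0 of the 6, with *Ocm* just short of the criterion (DESeq2 adjusted p = 0.0101) and *Slc26a5* at a DESeq2 adjusted p of 0.0193. Without the filter on low counts, *Ocm* and *Slc26a5* were called (adjusted p = 0.00107 and 0.00301).

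Per length, the order of the 6 genes changed with age and fraction. In P1 GFP+ cells, *Otof* was the highest, at 19.1 and 24.2 RPKM, or 59.1% and 60.5% of the summed RPKM of the 6 genes. *Cacna1d* followed at 7.71 and 9.85 RPKM and *Cabp2* at 3.56 and 4.08 RPKM, and these levels did not overlap. *Slc17a8*, *Ocm* and *Slc26a5* stood below 1 RPKM in both libraries.
In P6 GFP+ cells, *Ocm* was the highest, at 117.5 and 46.9 RPKM, or 79.8% and 58.7% of the sum, and *Otof* followed at 14.4 and 14.9 RPKM. *Cabp2* (4.92 and 2.85 RPKM), *Slc26a5* (4.91 and 6.44 RPKM) and *Cacna1d* (4.55 and 7.27 RPKM) overlapped, and *Slc17a8* was lowest at 0.930 and 1.48 RPKM.
In the GFP- libraries, *Cacna1d* was the highest of the 6 genes, at 8.90 and 9.13 RPKM at P1 and 6.37 and 8.91 RPKM at P6, or between 53.8% and 72.2% of the sum. *Otof* came next at P1, with 2.31 and 2.10 RPKM, while at P6 *Otof* (1.58 and 2.79 RPKM) and *Ocm* (2.43 and 1.55 RPKM) overlapped.

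**Figure D3:**
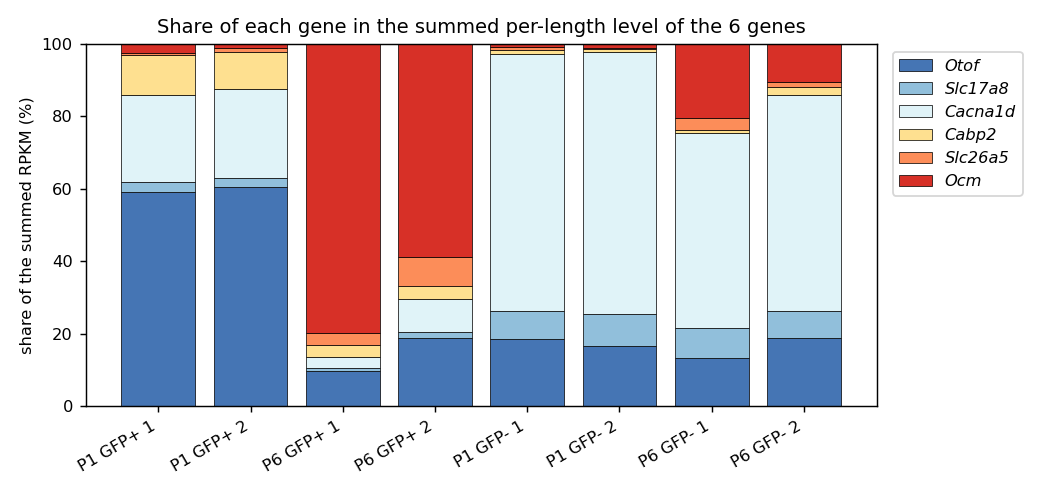
Share of each of the 6 genes in their summed RPKM, in percent, with 1 bar per library. *Otof* made up 59.1% and 60.5% in P1 GFP+ cells, *Ocm* 79.8% and 58.7% in P6 GFP+ cells, and *Cacna1d* between 53.8% and 72.2% in the GFP- libraries.

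Over the 4 groups, each gene had its own order of levels (mean ± SD, n = 2). *Otof* was 170.9 ± 28.6 CPM in P1 GFP+, 115.7 ± 2.96 CPM in P6 GFP+, 17.4 ± 1.14 CPM in P1 GFP- and 17.2 ± 6.75 CPM in P6 GFP- cells, and the last pair overlapped. *Cabp2* was 5.25 ± 1.97 CPM in P6 GFP+ and 5.15 ± 0.50 CPM in P1 GFP+ cells, which overlapped, and 0.295 ± 0.210 and 0.158 ± 8.7e-05 CPM in P6 and P1 GFP- cells, which overlapped too.
*Ocm* was 60.3 ± 36.6 CPM in P6 GFP+, 1.46 ± 0.457 CPM in P6 GFP-, 0.464 ± 0.145 CPM in P1 GFP+ and 0.0871 ± 0.0112 CPM in P1 GFP- cells, with no overlap between neighbours. *Slc26a5* was 17.4 ± 3.33 CPM in P6 GFP+ cells, and its levels in P1 GFP+ (0.952 ± 0.358 CPM) and P6 GFP- cells (0.945 ± 0.292 CPM) overlapped above that of P1 GFP- cells (0.230 ± 0.123 CPM). For *Slc17a8* and *Cacna1d* no neighbouring groups in the order differed beyond their spread.

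The rise of *Ocm* and *Slc26a5* was also set against the hair cell markers of the same library. Of the 13 hair cell markers, 0 were higher and 3 lower past the criteria in P6 than in P1 GFP+ cells, in edgeR as in the DESeq2 test (0 higher and 9 lower at an unadjusted p below 0.05 in edgeR). These were *Atoh1* (-3.07 ± 0.29), *Barhl1*, a transcription factor of hair cells (-2.21 ± 0.26), and *Myo3a*, a stereociliary myosin (-2.04 ± 0.19). *Myo7a*, another hair cell myosin, differed by -1.73 ± 0.21 and *Pou4f3* by -0.31 ± 0.25, neither past the criteria. The median over the 13 markers was -0.96.
As a share of the summed CPM of the 13 markers, *Ocm* was 0.0742% and 0.0420% in P1 GFP+ cells and 19.9% and 6.48% in P6 GFP+ cells. *Slc26a5* was 0.0914% and 0.140% at P1 and 3.49% and 3.73% at P6. Both genes thus rose relative to this sum in each replicate.
*Otof*, by contrast, was 19.7% and 22.2% of the sum at P1 and 26.3% and 22.2% at P6, with overlapping ages. *Myo6* and *Calb2* made up much of the sum. Without them, *Otof* was 50.2% and 53.4% of the sum of the other 11 markers at P1 and 74.3% and 66.8% at P6, and no longer overlapped. *Slc26a5* was then 0.233% and 0.337% at P1 and 9.87% and 11.2% at P6.

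**Figure D4:**
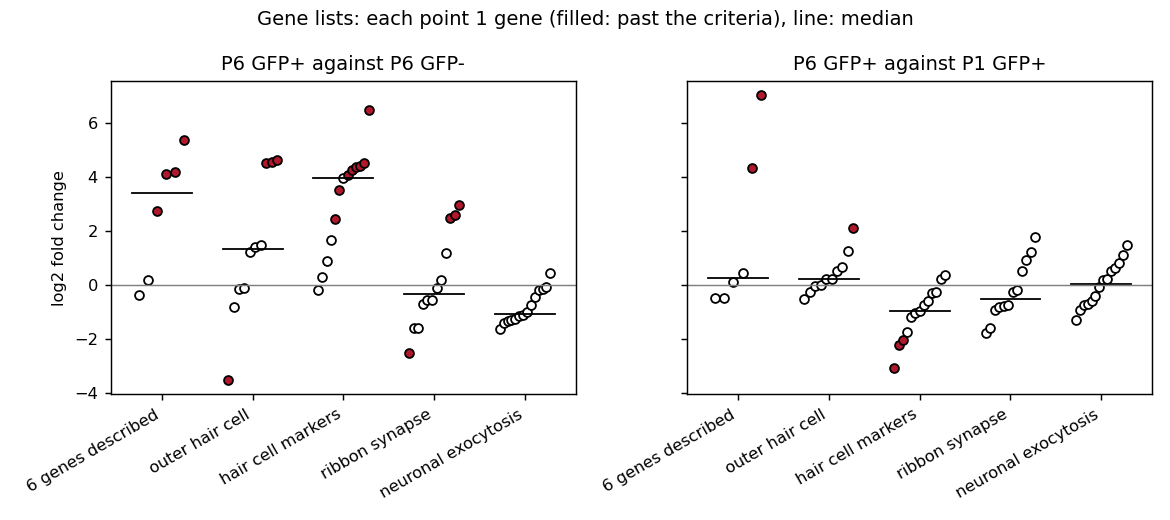
Log2 fold changes of the genes of 5 lists between the fractions at P6 (left) and between the ages in GFP+ cells (right), with 1 point per gene, filled where past the criteria, and a line at the median of the list. Between the ages, *Ocm* (7.04) and *Slc26a5* (4.32) lay above all genes of the other lists, of which *Lbh* (2.13) was the only one past the criteria and higher at P6, and the hair cell markers had a median of -0.96. The highest hair cell marker on the left is *Atoh1*, set against GFP- levels of 0.0162 and 0 CPM.

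Genes with related roles were counted in the same fits. Of 10 further outer hair cell genes, 4 were past the criteria and higher in GFP+ cells at P1 and none lower, among them the efferent acetylcholine receptor subunits *Chrna10* (3.34 ± 0.20) and *Chrna9* (3.11 ± 0.25) and *Strc*, which encodes stereocilin of the hair bundle (3.21 ± 0.34). At P6, *Chrna10* (4.64 ± 0.29), *Strc* (4.55 ± 0.25) and *Chrna9* (4.52 ± 0.41) were higher and *Kcnma1*, a calcium-activated potassium channel, was lower (-3.52 ± 0.60). Between the ages in GFP+ cells, 1 of the 10 was past the criteria, *Lbh*, a transcription cofactor, higher at P6 by 2.13 ± 0.14. The medians of this list were 0.16, 1.33 and 0.22 in these comparisons.
Of 12 further ribbon synapse genes, *Pclo*, which encodes the scaffold protein piccolo, was past the criteria and higher in GFP+ cells at P1 (2.18 ± 0.30) and P6 (2.98 ± 0.40). At P6, *Sh3gl2*, an endocytic protein (2.59 ± 0.19), and *Rims2*, an active zone protein (2.49 ± 0.28), were past them and higher too. At P1, *Sh3gl2* was higher by 1.07 ± 0.26 (edgeR adjusted p = 0.0155) and *Rims2* by 1.91 ± 0.25 (edgeR adjusted p = 0.00143), neither past the criteria. *Rims1*, the related active zone protein, was lower at P1 (-4.65 ± 0.27) and P6 (-2.54 ± 0.37). Between the ages, 0 of the 12 were past the criteria in either fraction, in edgeR or DESeq2. At an unadjusted p below 0.05 in edgeR, 3 were higher and 5 lower at P6 in GFP+ cells, and 1 was higher and 5 lower in GFP- cells. The medians of this list between the fractions were -0.22 at P1 and -0.32 at P6.
Of 14 genes of neuronal exocytosis, 6 were past the criteria and lower in GFP+ cells at P1, and none was past them and higher. The largest changes were those of the neuronal vesicular glutamate transporters *Slc17a7* (-3.72 ± 0.63) and *Slc17a6* (-3.69 ± 0.62) and the fusion protein gene *Snap25* (-2.94 ± 0.45). At an unadjusted p below 0.05 in edgeR, 11 were lower and 1 was higher. The higher gene was *Unc13b* (1.81 ± 0.14, edgeR adjusted p = 0.000146), which missed only the fold criterion. At P6, 0 of the 14 were past the criteria in either direction in edgeR or DESeq2, with 9 lower at an unadjusted p below 0.05 in edgeR and a median of -1.06. The spiral ganglion neuron markers summed to 51.3 to 52.1 CPM in P1 GFP+ against 261 and 709 CPM in P1 GFP- cells, and to 70.0 and 105.6 CPM against 223 and 185 CPM at P6.

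Relatives of the 6 genes were read in the same fits. Of the 5 other ferlins, *Fer1l5* had the highest mean level, 8.63 RPKM, and was not past the criteria in any comparison. *Dysf*, the ferlin of muscle membrane repair, was higher in GFP+ cells at P1 (2.10 ± 0.20) and P6 (3.27 ± 0.16), and *Fer1l6* at P1 (2.20 ± 0.18). The L-type channel gene *Cacna1c*, at 3.22 RPKM the highest of the 3 paralogs of *Cacna1d*, was lower in P1 GFP+ cells (-3.50 ± 0.17), where *Cacna1d* was at 0.06 ± 0.12.
*Cabp7*, at 2.53 RPKM the highest of the 4 relatives of *Cabp2*, was lower in GFP+ cells at P6 (-2.41 ± 0.24) and higher at P6 than at P1 in GFP+ (3.53 ± 0.38) and GFP- cells (6.13 ± 0.22). Of the 10 other SLC26 genes, which encode anion transporters, *Slc26a11* was the highest at 15.6 RPKM with no call, and 1 was past the criteria in any comparison, *Slc26a10* at P1 (2.53 ± 0.19). *Pvalb*, the parvalbumin related to *Ocm*, had a mean of 18.1 RPKM and no call. Of the vesicular glutamate transporters, *Slc17a7* was the higher of the relatives of *Slc17a8*, at 2.24 RPKM.

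The genes with the most similar pattern to each of the 6 were found by the root mean square difference of log2(CPM + 0.5), centred on each gene's mean, over the 8 libraries and among 19233 genes. The nearest to *Ocm* was *Gsbs*, with a difference of 0.23 on this scale, well ahead of *Bmp6*, a secreted growth factor (0.88), and *Ces1d*, a carboxylesterase (0.88). *Gsbs* had 0.633 and 0.241 CPM in P1 GFP+ cells, 57.0 and 33.1 CPM in P6 GFP+ cells, and 0.973 and 0.931 CPM in P6 GFP- cells, and was listed with 0 counts and at 0.0158 CPM in P1 GFP- cells. It shared with *Ocm* the order of the 4 groups and the higher value in P6 GFP+ replicate 1, as follows from its choice as the nearest gene over these libraries.
For *Slc26a5* the nearest were *Slc34a2*, a phosphate transporter (0.40), *Ccdc69* (0.41) and *Sorl1*, a sorting receptor (0.45). For *Otof* they were *Shc4*, a signalling adaptor (0.23), *5730420D15Rik* (0.24) and *Akr1cl* (0.25), and for *Cabp2* *Gm7749* (0.19), *Ppp1r2*, a phosphatase inhibitor (0.23), and *Trav1* (0.24). The added 0.5 CPM shrinks differences at low levels, so that genes near on this scale need not share a fold change. *Akr1cl* had 4.19 and 4.22 CPM in P1 GFP+ cells but 0.0528 and 0.0317 CPM in P1 GFP- cells.
*Slc17a8* and *Cacna1d* varied little, so that many genes lay near them. The nearest were *Mlh3* (0.099), *Ammecr1l* (0.10) and *Gimap1* (0.10) for *Slc17a8*, and *Gm10653* (0.089), *Gm16024* (0.093) and *Mau2* (0.094) for *Cacna1d*. *Gm10653* and *Gm16024* had few counts, with 0.0563 CPM each in P6 GFP+ replicate 1 and highest levels of 0.844 and 0.723 CPM. Their nearness to *Cacna1d* thus depends on the added 0.5 CPM.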

How the data were processed

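RNA-seq was performed on GFP+ and GFP- cells of P1 and P6 cochleas (2 libraries per group, 17769024 to 67695039 gene counts each), from paired-end reads of an mRNA library kit that keeps no strand. Per the labels, the authors deposited raw counts per Ensembl gene without normalization, and their processing notes name TopHat 1.4.0, HTSeq, DESeq 1.9.2 and mm9 (NCBIM37). The counting mode is not given in the sources used here. Lines for reads on no gene (13.8% to 25.6% of all), on more than 1 gene (2.05% to 2.53%) and at more than 1 place (7.41% to 9.60%) were left out, so genes with near-identical copies are undercounted.

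Symbols, positions and exon lengths came from the NCBIM37 annotation (34391 of 36536 genes). Where a symbol had more than 1 ID, the one with the longer exons was used. Groups were taken from the sample titles. Each comparison was fitted on its 4 libraries, and the interaction on all 8, with edgeR 4.0.16 in R 4.3.3, where low counts were removed by filterByExpr (at least 10 counts, 15 in total), libraries were scaled by TMM, and the quasi-likelihood test was adjusted by Benjamini-Hochberg over all genes tested. Criteria were p and adjusted p below 0.01 and a fold change above 4 (no fold criterion for the interaction). The SE is the log2 fold change divided by the square root of F. Counting intervals are exact at 95% and cover counting error only. The procedure was tested on simulated data. Figures were drawn with matplotlib 3.10.9 in Python 3.11.15.

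The 6 genes and all lists were chosen with earlier results of these data known. The text names the 6 genes, of each list up to 3 genes per direction and comparison with the largest change past the criteria plus a few standard markers, the most abundant paralog of each family, and the 3 genes most like each of the 6. Further paralogs past the criteria were named after their values were seen. Alternatives were DESeq2 1.42.0 size factors or library totals, the DESeq2 test, no filter, all 8 libraries, a replicate block and leaving out each library. A crossed block and the marker sum without 2 genes were chosen after seeing the data.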

Additional observations from a re-analysis of the deposited data

How the results depend on the processing

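The calls of *Slc26a5* and *Ocm* between the ages in GFP+ cells and of *Otof* and *Cabp2* between the fractions at P1 held under all 10 alternatives, with log2 fold changes of 3.97 to 4.70, 6.17 to 7.56, 3.25 to 3.54 and 4.99 to 5.18. The P1 call of *Ocm* rests on 35 and 9 counts per fraction, and such depth limits it. The cause of the changes below was not tested.

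Without 1 library, the genes past the criteria and higher numbered 0 to 1105 (main 892) between the P6 fractions, 80 to 1306 (main 281) between the ages in GFP+ cells, 123 to 366 (main 271) in GFP- cells and 13 to 1044 (main 182) for the interaction. Of the 6 genes, 0 to 4 (main 4) and 0 to 2 (main 1) were called between the P6 fractions and between the ages in GFP- cells. The DESeq2 test gave 778 genes between the ages in GFP+ cells and 869 for the interaction. Omitting the filter gave 1019 and 1658, and called 2 of the 6 genes between the ages in GFP- cells and 2 for the interaction. Fitting all 8 libraries gave 752 genes between the ages in GFP+ cells.

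Replicate numbers carry no stated pairing, and deviations of same-numbered libraries correlated at -0.28 to 0.086. A replicate block gave 426 genes between the ages in GFP+ cells and 74 for the interaction. Of the 6 genes, only the P1 call of *Ocm* changed under it (adjusted p = 0.0244). Crossing the numbers between the ages in GFP- cells gave 337 genes and 2 of the 6.

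Genes without a call changed sign in a few alternatives. Without 1 library, *Slc17a8* ranged from -0.15 to 0.088 between the P1 fractions (above 0 without P1 GFP- replicate 2), from -0.16 to 0.52 between the P6 fractions and from -0.15 to 0.46 in the interaction (both below 0 without P6 GFP+ replicate 2). *Cacna1d* ranged from -0.087 (without P1 GFP+ replicate 2) to 0.21 between the P1 fractions and from -0.27 to 0.15 (without P6 GFP- replicate 1) between the ages in GFP- cells. *Otof* ranged there from -0.25 (without P6 GFP- replicate 2) to 0.50, and *Cabp2* from -0.35 (without P6 GFP+ replicate 1) to 0.50 between the ages in GFP+ cells. With library totals, *Cacna1d* was -0.039 between the P1 fractions and *Otof* -0.015 between the ages in GFP- cells.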
